A study of Saccharomyces cerevisiae with 18 samples.

Results

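The nuclear genes of the yeast respiratory chain and ATP synthase were followed in 6 groups that differ in the R2TP complex. The genes were chosen by name and systematic identifier, with no measured value in the rule: 40 of the 7126 features in the deposited table. Earlier results of these data were known when the 40 genes were chosen. They encode the NADH dehydrogenases (3 genes), succinate dehydrogenase (4), complex III (9), cytochrome c (2), complex IV (10) and ATP synthase (12). All 40 passed the filter for testing, a mean of at least 10 normalized counts over the 18 libraries.

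Messenger RNA was measured by Illumina sequencing of poly(A)-selected RNA from haploid budding yeast, strain BY4741, with 3 libraries from biological replicates in each of 6 groups. The groups were the PIH1 deletion, the TAH1 deletion and the wild type with a tag on Rvb1, and the same 3 genotypes with a tag on Rvb2. Every group, the wild types included, therefore carried a tagged Rvb protein, and the labels do not say what the tag was. All cultures grew at 30 °C in YPD, which is rich in glucose, and were harvested at OD600 values between 1.2 and 1.5. Rvb1 and Rvb2 are partner AAA+ ATPases that join Pih1 and Tah1 in the R2TP complex, and the title of the series asks how loss of R2TP components changes their network. The labels do not tell more than 1 strain apart within a group, so an effect of the deletion and an effect of the strain cannot be told apart.

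Budding yeast has no complex I. Single-protein NADH dehydrogenases and succinate dehydrogenase pass electrons to coenzyme Q, complex III passes them to cytochrome c, and complex IV passes them to oxygen, while complexes III and IV pump the protons that drive ATP synthase. On glucose, yeast ferments and holds these nuclear genes at a reduced level, and the Hap2, Hap3, Hap4 and Hap5 proteins activate many of them through a CCAAT sequence upstream of the gene. Most complexes also contain subunits encoded in mitochondrial DNA, and dedicated assembly factors put the parts together.

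The CCAAT sequence was searched in the R64 reference of RefSeq, which is sacCer3, in a window from 250 bases before to 50 bases after each start codon. The longer Hap form TNATTGGT, which contains the complement of CCAAT, lay on either strand in the window of 15 of the 40 genes (37.5%), against 345 of 6001 nuclear protein-coding genes (5.75%). CCAAT itself lay in 33 of the 40 windows (82.5%), against 2601 of 6001 (43.3%), and every TNATTGGT match contains a CCAAT match. By complex, TNATTGGT lay in 2 of 3 NADH dehydrogenase genes, 0 of 4 succinate dehydrogenase genes, 2 of 9 complex III genes, 0 of 2 cytochrome c genes, 5 of 10 complex IV genes and 6 of 12 ATP synthase genes. The stretches below show the match in up to 2 genes of each complex that had one, those with the lowest change in the Rvb2-tagged PIH1 deletion. They are given 5′ to 3′ on the coding strand with up to 10 bases on each side, and capitals mark TNATTGGT or its reverse complement.
NDI1, chrXIII:30018-30045, minus strand: attcattcggACCAATCAtatgaaggca
NDE1, chrXIII:556561-556588, minus strand: attctggtaaACCAATTAaagagagaaa
RIP1, chrV:107010-107029, plus strand: ggACCAATCAgcgttttgcg
QCR7, chrIV:1496713-1496740, minus strand: tcttgttttgACCAATCAggagcgacgc
COX5B, chrIX:155139-155166, plus strand: taaacaatagACCAATTAtttcaattta
COX6, chrVIII:209478-209505, plus strand: aaaagggaccTAATTGGTccggtcaaag
ATP15, chrXVI:29935-29962, plus strand: ttttatacgaACCAATGAaatttgatcc
ATP4, chrXVI:408917-408944, minus strand: tcaatattgaACCAATCAcgacgctttt
The match began 228 bases before the start codon in NDI1, 103 in NDE1, 248 in RIP1, 182 in QCR7, 73 in COX5B, 217 in COX6, 134 in ATP15 and 190 in ATP4. NDE1 held another match, not shown, that began 10 bases before the start codon. In 7 of these 8 stretches the capitals begin with ACCAAT, and in COX6 they read TAATTGGT. A match describes letters in the reference, and binding was not measured.

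Each library held 4829249 to 5412654 normalized counts in total, of which the 40 genes took 0.537% to 0.803%. PIH1 had 3, 6 and 9 normalized counts in its deletion with tagged Rvb1, against 162, 162 and 146 in the wild type, and 3, 1 and 5 with tagged Rvb2, against 160, 136 and 125. TAH1 had 2, 2 and 3 in its deletion with tagged Rvb1, against 185, 185 and 156, and 0, 0 and 0 with tagged Rvb2, against 201, 176 and 177. In each case the deleted gene lay far below every wild type library. The a-cell marker genes summed to 12742 to 18676 normalized counts per library and the alpha-cell markers to 324 to 551, the order of a haploid a strain such as BY4741. One library, the Rvb1-tagged wild type replicate 2, differed most from its group. In it 38 of the 40 genes were below both other replicates, with a median difference of −0.31 on the log2 scale. The medians of the other 17 libraries lay between −0.12 and 0.19. Such counts were also high elsewhere: 33 in replicate 1 of the Rvb1-tagged PIH1 deletion and 31 in replicate 1 of the Rvb2-tagged TAH1 deletion. Replicate 3 had 28 in the Rvb1-tagged TAH1 deletion and 24 in the Rvb2-tagged wild type. Counts of the 40 genes in comparisons that use the Rvb1-tagged wild type are given with and without its replicate 2.

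None of the 40 genes overlaps another annotated gene or has a near copy above 90% identity. They lie on 14 of the chromosomes, and 3 of them, QCR9, QCR10 and COX5B, have more than 1 coding exon. Per length, in FPKM over all libraries, ATP synthase messages were the most abundant, with a complex median of 388 FPKM and a range from 199 for ATP20 to 736 for ATP2. Complex III had a median of 284 FPKM (RIP1 160 to QCR7 467) and complex IV 274 FPKM (COX26 33.5 to COX9 487). Succinate dehydrogenase had a median of 132 FPKM (SDH1 67.2 to SDH3 272). The NADH dehydrogenases ranged from NDE2 at 4.39 FPKM to NDE1 at 251 FPKM. Of the cytochrome c genes, CYC1 had 183 FPKM and CYC7 36.6 FPKM.

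With tagged Rvb2, loss of PIH1 went with a fall of the respiratory genes as a block. Tested with limma on log2(normalized count + 1) and adjusted over all 5825 genes, 34 of the 40 fell and 1 rose. Of all tested genes 69.6% changed, 34.4% downward and 35.2% upward. The median change of the 40 genes was −0.59 on the log2 scale, against 0.01 for all tested genes. All 4 succinate dehydrogenase genes, all 9 complex III genes and both cytochrome c genes fell, as did 9 of 10 in complex IV and 9 of 12 in ATP synthase. The fall exceeded 2-fold in 10 genes: NDI1, SDH1, SDH2, SDH4, CYT1, QCR10, CYC1, CYC7, COX5B and COX26. In bulk RNA, fewer cells carrying a message and less message per cell cannot be told apart.

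**Figure D1:**
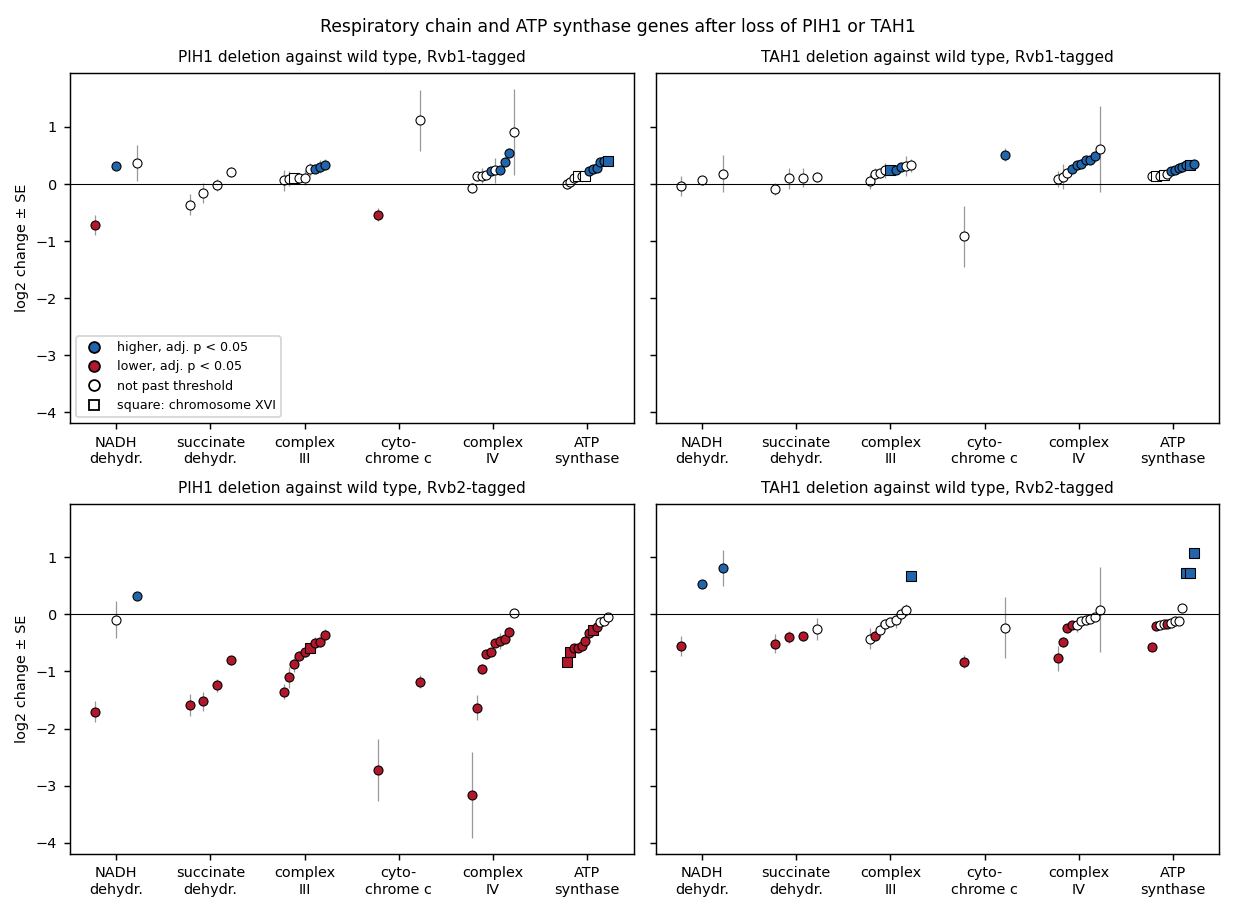
Change of each of the 40 genes on the log2 scale (vertical axis, point ± SE) in the 4 deletions against their own wild types, grouped by complex. Blue points rose and red points fell past an adjusted p of 0.05, white points did not pass it, and squares mark the 4 genes of chromosome XVI. Red fills the panel of the Rvb2-tagged PIH1 deletion, where 34 genes fell, and none is red in the Rvb1-tagged TAH1 deletion.

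The complexes did not fall by the same amount in the Rvb2-tagged PIH1 deletion. Median changes were −1.95 for cytochrome c, −1.39 for succinate dehydrogenase, −0.66 for complex III, −0.58 for complex IV and −0.39 for ATP synthase. The NADH dehydrogenases went separate ways. NDI1 (YML120C), the internal enzyme that oxidizes matrix NADH, had 248, 207 and 231 normalized counts in the deletion, against 630, 808 and 810 in the wild type. All 3 deletion libraries lay below the wild type, and the change was −1.70 ± 0.18, adjusted p = 2.83e-07. NDE1 (YMR145C), the main external enzyme, which oxidizes cytosolic NADH, had 2035, 2189 and 2140, against 1701, 1695 and 1675. It was the 1 gene of the 40 that rose, by 0.33 ± 0.05, adjusted p = 8.8e-06, and the groups did not overlap. Its low-abundance relative NDE2 (YDL085W) had 33, 30 and 27, against 41, 36 and 22, and the overlapping groups gave −0.09 ± 0.32, adjusted p = 0.81.

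Succinate dehydrogenase, which also serves the citric acid cycle, fell in every gene. SDH1 (YKL148C), the flavoprotein, had 282, 281 and 300 normalized counts in the Rvb2-tagged PIH1 deletion, against 770, 947 and 893 in the wild type. The deletion libraries were close to each other and all below the wild type, with a change of −1.59 ± 0.19, adjusted p = 1e-06. SDH2 (YLL041C), the iron-sulfur subunit, had 208, 210 and 196, against 492, 644 and 650 (−1.52 ± 0.17, adjusted p = 4.55e-07). The membrane anchors fell too. SDH4 (YDR178W) had 221, 261 and 229, against 542, 576 and 568, and SDH3 (YKL141W) had 590, 561 and 564, against 1048, 988 and 969. Neither pair of groups overlapped, and the changes were −1.25 ± 0.11 and −0.81 ± 0.08, with adjusted p-values of 2.7e-08 and 2.53e-07.

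In complex III, CYT1 (YOR065W), QCR10 (YHR001W-A) and RIP1 (YEL024W) fell most. CYT1, which encodes cytochrome c1, had 417, 419 and 400 normalized counts in the Rvb2-tagged PIH1 deletion, against 1009, 1115 and 1051 in the wild type. The deletion libraries lay within a narrow range far below the wild type, with a change of −1.36 ± 0.13, adjusted p = 1.06e-07. RIP1, the Rieske iron-sulfur protein, had 307, 361 and 317, against 478, 666 and 680 (−0.87 ± 0.13, adjusted p = 1.77e-05). Among the small subunits, QCR10 had 149, 132 and 147, against 321, 308 and 291, the next largest fall of the complex after CYT1 at −1.10 ± 0.18, adjusted p = 4.12e-05. The core proteins COR1 (YBL045C) and QCR2 (YPR191W) changed by −0.49 and −0.59, and QCR6 (YFR033C), QCR7 (YDR529C), QCR8 (YJL166W) and QCR9 (YGR183C) by −0.66, −0.73, −0.51 and −0.36, and each of these passed the test without overlap of the groups.

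In complex IV, COX26 (YDR119W-A) and COX5B (YIL111W) had the largest falls. COX26, a small subunit, had 2, 2 and 10 normalized counts in the Rvb2-tagged PIH1 deletion, against 51, 34 and 38 in the wild type. The groups did not overlap, but at these low counts the error of the change was wide (−3.16 ± 0.75, adjusted p = 0.00119). COX4 (YGL187C), a zinc-binding subunit, had 344, 359 and 367, against 722, 688 and 676 (−0.96 ± 0.09, adjusted p = 6.58e-08), and COX6 (YHR051W) had 401, 390 and 402, against 685, 616 and 622 (−0.69 ± 0.06, adjusted p = 7.27e-08). Both were low in all 3 deletion libraries. COX8 (YLR395C), COX12 (YLR038C), COX13 (YGL191W) and COX7 (YMR256C) fell by smaller amounts, from −0.66 for COX8 to −0.30 for COX7. COX9 (YDL067C) was the exception of the complex, with 444, 403 and 419, against 445, 427 and 375, overlapping groups and a change of 0.02 ± 0.08, adjusted p = 0.792.

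ATP synthase had the most moderate falls of the multi-subunit complexes, and its genes differed among themselves. In the F1 part, ATP15 (YPL271W, epsilon) had 376, 427 and 418 normalized counts in the Rvb2-tagged PIH1 deletion, against 855, 696 and 642 in the wild type (−0.83 ± 0.09, adjusted p = 3.5e-07). ATP16 (YDL004W, delta) had 721, 714 and 686, against 1072, 1072 and 1055 (−0.59 ± 0.06, adjusted p = 2.03e-07). The deletion libraries of both genes lay below every wild type library. The changes of ATP1 (YBL099W, alpha), ATP2 (YJR121W, beta) and ATP3 (YBR039W, gamma) were −0.55, −0.47 and −0.32, and all 3 passed the test. In the stalk and membrane part, ATP4 (YPL078C, subunit b) had 1062, 1065 and 1108, against 1792, 1654 and 1651 (−0.65 ± 0.07, adjusted p = 3.79e-07), and ATP18 (YML081C-A) changed by −0.59. The fall of ATP17 (YDR377W) was −0.22 ± 0.07, adjusted p = 0.0135. ATP20 (YPR020W), a dimer-interface subunit, had 256, 225 and 251, against 327, 310 and 255, and passed the test (−0.28 ± 0.08, adjusted p = 0.00751) although 1 deletion library lay above the lowest wild type library. The other peripheral stalk genes ATP5 (YDR298C, the oligomycin sensitivity protein), ATP7 (YKL016C) and ATP14 (YLR295C) did not pass. ATP5 had 1049, 1109 and 1120, against 1230, 1111 and 1041 (−0.04 ± 0.06, adjusted p = 0.566), and ATP7 and ATP14 gave −0.11 and −0.13.

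Of the 15 genes with TNATTGGT in the window, 12 fell in the Rvb2-tagged PIH1 deletion, where 34 of all 40 genes fell. Those 15 genes are part of the 40, and whether the match had a part in the fall was not tested. ATP7, ATP14 and NDE1 had a match and were among the 6 that did not fall. The succinate dehydrogenase and cytochrome c genes, whose median falls were the largest, had no TNATTGGT in this window. The shorter CCAAT lay in 4 of the 4 succinate dehydrogenase windows and in 0 of the 2 cytochrome c windows.

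In the Rvb1-tagged PIH1 deletion the changes were small and most of them upward. Of the 40 genes, 14 rose and 2 fell, where 19.2% of all tested genes rose and 18.7% fell. The median change was 0.19 on the log2 scale, against 0.01 for all tested genes, and no change past the threshold exceeded 2-fold. Rises came from 6 ATP synthase, 4 complex IV and 3 complex III genes and NDE1. The falls were NDI1 and CYC1 (YJR048W). Of the succinate dehydrogenase genes, 0 rose and 0 fell by the adjusted limma test, and at an unadjusted p below 0.05 1 was higher and 0 were lower.

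NDE1 had 2614, 2503 and 2521 normalized counts in the Rvb1-tagged PIH1 deletion, against 2098, 2094 and 1952 in the wild type. Every deletion library lay above the wild type (0.31 ± 0.05, adjusted p = 8.13e-05). ATP5 had 1360, 1443 and 1384, against 1129, 968 and 1066 (0.41 ± 0.06, adjusted p = 0.00012). COX7, a small complex IV subunit, had 327, 362 and 340, against 259, 203 and 247 (0.54 ± 0.09, adjusted p = 0.000236), and COX9 had 489, 544 and 549, against 403, 385 and 414 (0.39 ± 0.08, adjusted p = 0.00095). These groups did not overlap either. NDI1 went the other way, with 331, 429 and 391, against 774, 430 and 747 (−0.72 ± 0.18, adjusted p = 0.00513), where 1 wild type library, replicate 2, lay only just above the highest deletion library.

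Without replicate 2 of the Rvb1-tagged wild type, 11 of the 40 genes rose and 5 fell in this deletion, and the median change was 0.07, where 23.6% of all tested genes rose and 22.9% fell. The rises of NDE1, COX5A (YNL052W), COX7, COX9, COX13, QCR7, ATP3, ATP5, ATP7, ATP14 and ATP20 and the falls of NDI1 and CYC1 passed with and without it. ATP17, COR1 and QCR9 no longer passed, and SDH1 (−0.65, adjusted p = 0.000712), SDH2 (−0.41, adjusted p = 0.0132) and QCR10 (−0.27, adjusted p = 0.0283) fell instead. A fit of only the 6 libraries compared gave 8 called genes, where 21.9% of all tested genes were called.

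In the Rvb1-tagged TAH1 deletion 17 of the 40 genes rose and 0 fell, where 6.28% of all tested genes rose and 4.48% fell. At an unadjusted p below 0.05, 21 were higher and 0 lower. The median change was 0.23, against 0.0049 for all tested genes. Rises were seen in 7 ATP synthase, 6 complex IV and 3 complex III genes and in CYC1, and in 0 of the NADH and succinate dehydrogenase genes, also at an unadjusted p below 0.05. In a fit of only the 6 libraries compared, 0 genes passed, with 18 higher and 0 lower at an unadjusted p below 0.05, so these calls rest on the spread shared over all 6 groups.

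COX13, a complex IV subunit, had 860, 824 and 818 normalized counts in the Rvb1-tagged TAH1 deletion, against 670, 557 and 638 in the wild type (0.43 ± 0.07, adjusted p = 0.000471). COX4 had 916, 909 and 837, against 695, 545 and 673 (0.48 ± 0.09, adjusted p = 0.00205). COX9 had 537, 585 and 489, against 403, 385 and 414 (0.42 ± 0.08, adjusted p = 0.00221). In all 3 genes every deletion library lay above every wild type library. ATP3, the gamma subunit of the rotor, had 1921, 1977 and 1846, against 1633, 1419 and 1621 (0.30 ± 0.06, adjusted p = 0.00284), also without overlap. Without replicate 2 of the wild type, 15 genes rose, 1 fell and the median was 0.09, where 17.5% of all tested genes rose and 13.9% fell. The rises of QCR2, QCR6 and QCR7 no longer passed, ATP18 rose, and CYC7 (YEL039C) fell by 1.67 (adjusted p = 0.0053).

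**Figure D2:**
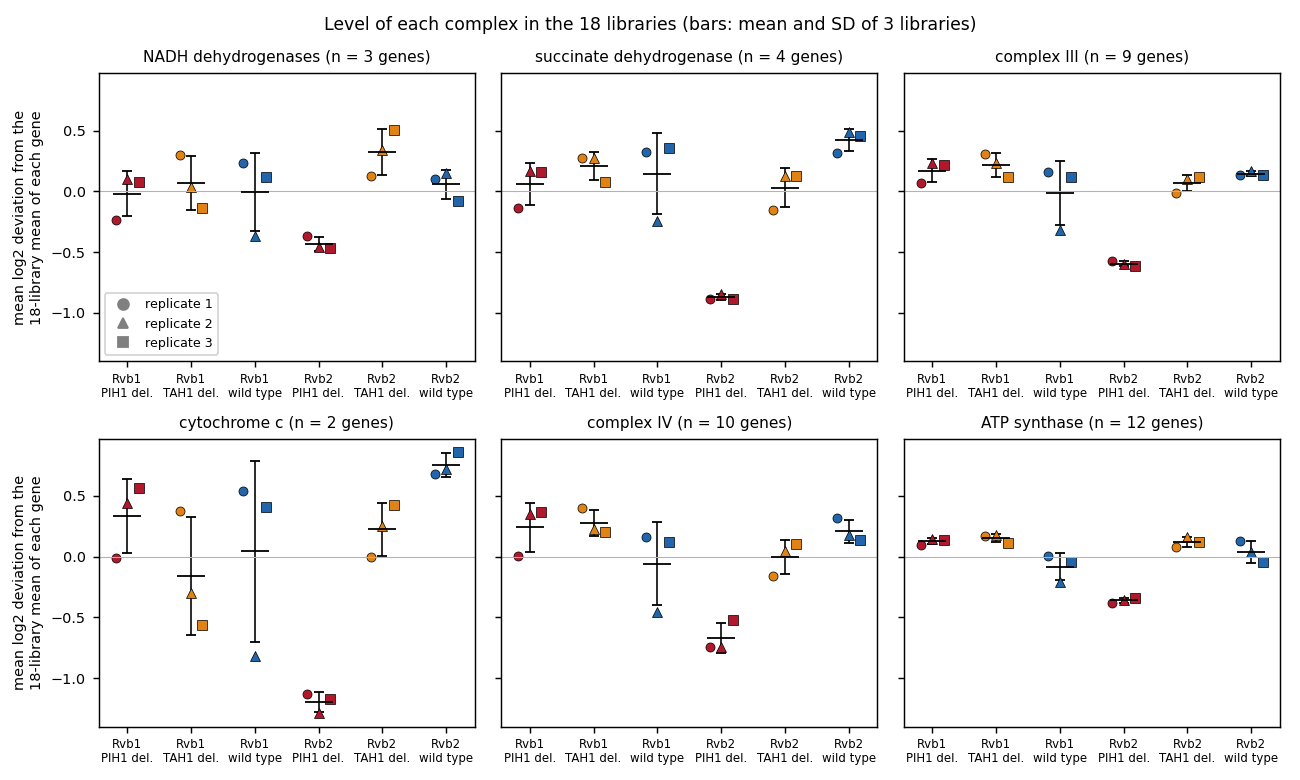
Mean deviation of each complex from its 18-library level (vertical axis, log2, averaged over the genes of the complex) in every library, 3 points per group with their mean and SD as bars, and a panel per complex. The 3 libraries of the Rvb2-tagged PIH1 deletion are lowest in every panel but that of the NADH dehydrogenases, where replicate 2 of the Rvb1-tagged wild type lies among them, and the ATP synthase panel has the narrowest spread.

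The complexes were also followed library by library, as the mean deviation of their genes from each gene's own mean over the 18 libraries on the log2 scale. Over all 40 genes it was −0.60, −0.61 and −0.55 in the Rvb2-tagged PIH1 deletion and −0.03, 0.14 and 0.16 in the TAH1 deletion, against 0.22, 0.19 and 0.13 in the Rvb2-tagged wild type. With tagged Rvb1 it was 0.01, 0.23 and 0.23 in the PIH1 deletion and 0.29, 0.18 and 0.08 in the TAH1 deletion, against 0.16, −0.34 and 0.11 in the wild type. The Rvb2-tagged PIH1 deletion lay below the other 15 libraries, and among the Rvb1-tagged libraries only wild type replicate 2 was far below 0. For succinate dehydrogenase the values were −0.88, −0.84 and −0.89 in the Rvb2-tagged PIH1 deletion, against 0.32, 0.49 and 0.46 in its wild type. For ATP synthase they were −0.38, −0.36 and −0.34, against 0.13, 0.04 and −0.05, a smaller gap with no overlap.

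The genes split in the Rvb2-tagged TAH1 deletion. Of the 40, 6 rose and 13 fell, where 23.8% of all tested genes rose and 20.6% fell, and the median change was −0.17, against 0.02 for all tested genes. The falls were NDI1, SDH2, SDH3, SDH4, QCR6, CYC1, COX4, COX5B, COX8, COX13, ATP3, ATP16 and ATP18. The rises were NDE1, NDE2, QCR2, ATP4, ATP15 and ATP20. All 4 genes of the set that lie on chromosome XVI, QCR2, ATP4, ATP15 and ATP20, were among the 6 that rose.

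ATP20 (chromosome XVI, 599870 to 600217) had 612, 646 and 618 normalized counts in the Rvb2-tagged TAH1 deletion, against 327, 310 and 255 in the wild type. All deletion libraries were far above the wild type, and the change of 1.08 ± 0.08, adjusted p = 1.29e-08 was the only one of the 40 above 2-fold in this deletion. ATP4 had 2717, 2900 and 2855, against 1792, 1654 and 1651 (0.73 ± 0.07, adjusted p = 1.82e-07). QCR2, a complex III core protein, had 2361, 2506 and 2481, against 1466, 1540 and 1601 (0.67 ± 0.08, adjusted p = 1.23e-06), and ATP15 had 1193, 1237 and 1165, against 855, 696 and 642 (0.72 ± 0.09, adjusted p = 4.17e-06). None of these groups overlapped. The change of the 4 genes had a median of 0.73, and that of the 36 genes on other chromosomes −0.18.

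The same shift was present in chromosome XVI as a whole. Of its 444 tested genes 416 (93.7%) rose in the Rvb2-tagged TAH1 deletion, with a median change of 0.97, while the medians of the other 15 chromosomes lay between −0.11 and 0.03. In the other 3 deletions the median of chromosome XVI lay between 0.01 and 0.04. With tagged Rvb2 and PIH1 deleted, the same 4 genes all fell, with a median of −0.62. RVB2 itself lies on chromosome XVI and had 513, 550 and 499 in the TAH1 deletion, against 815, 952 and 880 in the Rvb2-tagged wild type. Copy number was not measured, and its part in these rises was not tested. Refitted without the genes of chromosome XVI, a setting chosen after seeing the data, 1 of the remaining 36 genes rose and 13 fell in this deletion, where 17.3% of all tested genes rose and 21.9% fell.

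**Figure D3:**
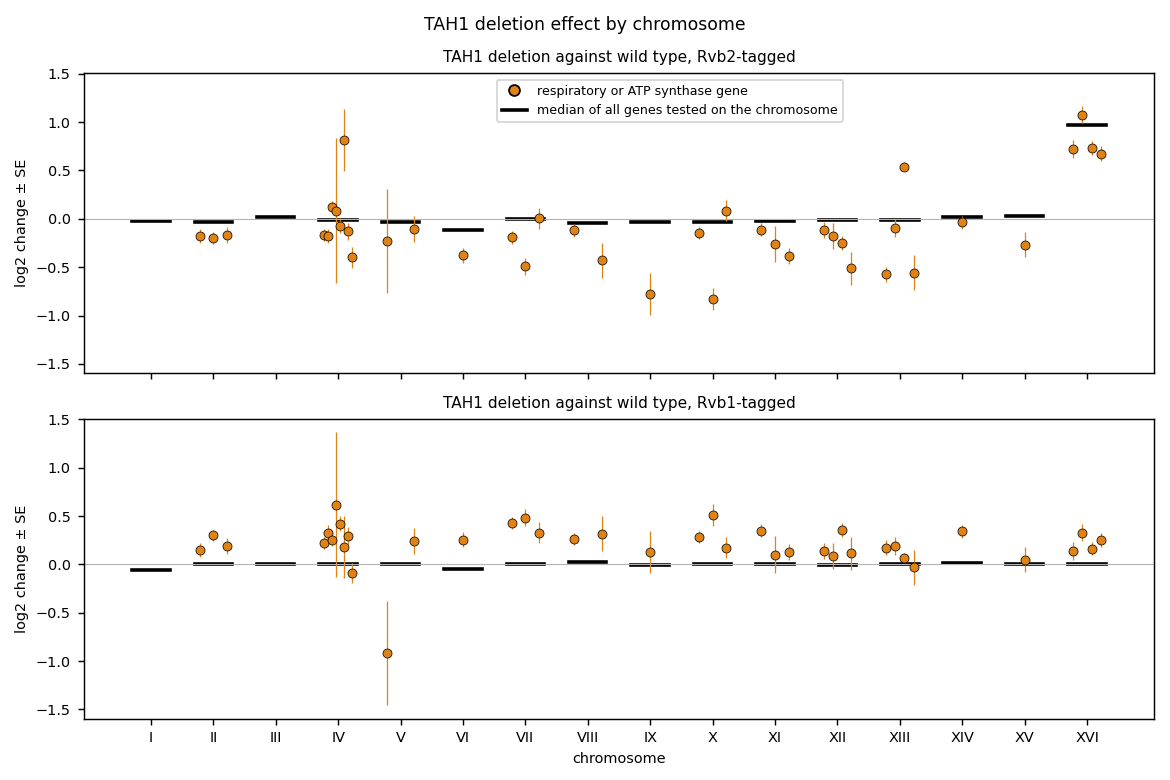
Change on the log2 scale (vertical axis) in the 2 TAH1 deletions, by chromosome (horizontal axis): points (± SE) are the respiratory genes on that chromosome and bars the median of all its tested genes. With tagged Rvb2 the bar of chromosome XVI stands at 0.97 with its 4 points between 0.67 and 1.08, and with tagged Rvb1 it is at 0.01.

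Off chromosome XVI, NDE1 and NDE2 were the genes that rose with tagged Rvb2 and TAH1 deleted. NDE1 had 2508, 2457 and 2393 normalized counts, against 1701, 1695 and 1675 in the wild type (0.54 ± 0.05, adjusted p = 5.21e-08), with no overlap. NDE2 had 42, 57 and 77, against 41, 36 and 22 (0.81 ± 0.32, adjusted p = 0.0473), a call that was lost without chromosome XVI genes, in the FPKM table and under other settings. NDI1, by contrast, had 441, 526 and 559, against 630, 808 and 810 (−0.56 ± 0.18, adjusted p = 0.0184). The largest falls were those of CYC1, with 226, 192 and 231, against 416, 378 and 358 (−0.83 ± 0.11, adjusted p = 1.41e-05), and COX5B, with 259, 323 and 349, against 557, 526 and 499 (−0.77 ± 0.22, adjusted p = 0.00823). ATP18 followed at −0.57 ± 0.08, adjusted p = 1.17e-05, and COX4 had 476, 516 and 492, against 722, 688 and 676 (−0.49 ± 0.09, adjusted p = 0.000235). In each of these 4 genes all deletion libraries lay below the wild type. In succinate dehydrogenase, SDH2, SDH3 and SDH4 fell by 0.51, 0.39 and 0.40, and SDH1 gave −0.26 ± 0.19, adjusted p = 0.278.

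Isoform pairs were compared next, since yeast exchanges some subunits with the oxygen supply. CYC1 encodes iso-1 cytochrome c, the main aerobic form, and CYC7 the iso-2 form. With tagged Rvb1, CYC1 had 249, 228 and 241 normalized counts in the PIH1 deletion and 453, 545 and 493 in the TAH1 deletion, against 373, 299 and 376 in the wild type. The PIH1 deletion lay below and the TAH1 deletion above all wild type libraries (−0.54 ± 0.11, adjusted p = 0.00167 and 0.51 ± 0.11, adjusted p = 0.00755). Under the Rvb2 tag CYC1 had 170, 145 and 195 in the PIH1 deletion, against 416, 378 and 358 in the wild type (−1.18 ± 0.11, adjusted p = 1.09e-07).

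CYC7 varied widely between replicates. It had 54, 111 and 126 normalized counts in the Rvb1-tagged PIH1 deletion and 51, 16 and 12 in the TAH1 deletion, against 78, 14 and 64 in the wild type. Neither change passed the test (1.11 ± 0.54, adjusted p = 0.112 and −0.91 ± 0.54, adjusted p = 0.287), although the direct comparison of the PIH1 with the TAH1 deletion did (2.03 ± 0.54, adjusted p = 0.00993). Under the Rvb2 tag it had 16, 15 and 13 in the PIH1 deletion and 60, 102 and 108 in the TAH1 deletion, against 85, 99 and 128 in the wild type. It fell with PIH1 deleted (−2.73 ± 0.54, adjusted p = 0.000232), while the groups overlapped with TAH1 deleted (−0.23 ± 0.54, adjusted p = 0.752). By FPKM, CYC7 made up 27.7% ± 8.92 of the CYC1 and CYC7 messages in the Rvb1-tagged PIH1 deletion and 4.94% ± 4.18 in the TAH1 deletion, against 11.8% ± 6.64 in the wild type (SD, n = 3). The wild type libraries gave 16.9%, 4.32% and 14.3%, the lowest being replicate 2, which stood apart. With tagged Rvb2 the share was 7.82% ± 1.91 in the PIH1 deletion and 28.4% ± 7.16 in the TAH1 deletion, against 20.8% ± 4.71 in the wild type (SD, n = 3). The shares are given with no test.

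COX5A and COX5B encode the aerobic and the hypoxic form of one complex IV subunit. COX5B had 150, 186 and 172 normalized counts in the Rvb2-tagged PIH1 deletion, against 557, 526 and 499 in the wild type (−1.64 ± 0.22, adjusted p = 3.5e-06), and COX5A had 518, 556 and 564, against 756, 740 and 724 (−0.44 ± 0.07, adjusted p = 2.19e-05). Both fell without overlap. By FPKM, the COX5B share of the pair was 22.6%, 25.2% and 23.7% in the PIH1 deletion and 26.7%, 31.4% and 32.7% in the TAH1 deletion, against 42.7%, 41.9% and 41.2% in the wild type. Every deletion library had a lower share than every wild type library. With tagged Rvb1, the shares were 35.0% ± 3.51 in the PIH1 deletion and 31.6% ± 4.54 in the TAH1 deletion, against 35.1% ± 6.76 in the wild type (SD, n = 3), which differ by less than the spread. Replicate 2 of this wild type had 27.3%, and its other libraries, with 39.9% and 38.0%, lay above all 6 deletion libraries. COX5A itself rose in both: 774, 890 and 839 with PIH1 deleted and 890, 955 and 852 with TAH1 deleted, against 724, 642 and 764 (0.23 ± 0.07, adjusted p = 0.0134 and 0.34 ± 0.07, adjusted p = 0.00389). The PIH1 call of COX5A was lost under quantile normalization (adjusted p = 0.128), with only the 6 libraries compared (adjusted p = 0.097) and without replicate 2 of the deletion (adjusted p = 0.0692). COX5B had 344, 506 and 497 and 513, 372 and 358, against 473, 238 and 462, and the overlapping groups gave 0.24 ± 0.22, adjusted p = 0.399 and 0.13 ± 0.22, adjusted p = 0.74.

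**Figure D4:**
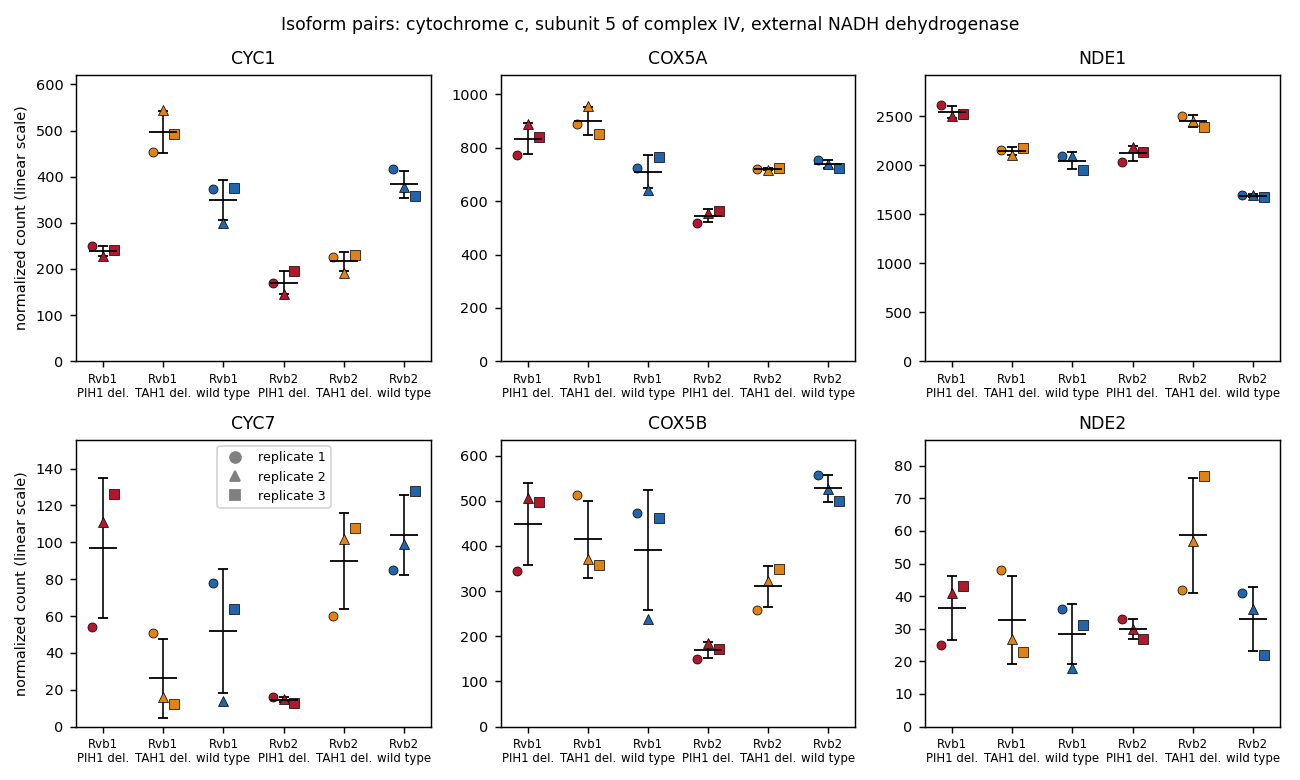
Normalized counts (vertical axis, linear) of CYC1, COX5A and NDE1 in the upper row and CYC7, COX5B and NDE2 in the lower row, 1 point per library and 1 column of points per group, with the mean and SD as bars. In the Rvb2-tagged PIH1 deletion COX5B lies at 150 to 186 and CYC7 at 13 to 16, and COX5B there is below every library of the other groups, while NDE1 is above its wild type in that deletion.

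The deletion effects were set against each other across the tags, as a difference of differences. For PIH1 the effect was lower with tagged Rvb2 than with tagged Rvb1 in 38 of the 40 genes and higher in 0, also at an unadjusted p below 0.05, where 50.3% of all tested genes differed, 24.7% lower and 25.7% higher. The median difference was −0.76. COX6 had the smallest adjusted p, with a difference of −0.83 ± 0.09, adjusted p = 3.09e-06: it had 609, 700 and 632 in the Rvb1-tagged PIH1 deletion, against 616, 540 and 596 in its wild type, beside the fall with tagged Rvb2 given above. ATP16 followed (−0.73 ± 0.09, adjusted p = 6.06e-06). The exceptions were NDE1, at 0.01, and NDE2, at −0.46. Of the genes that rose with tagged Rvb1, 9 fell with tagged Rvb2, namely COR1, QCR7, QCR9, COX5A, COX7, COX13, ATP3, ATP17 and ATP20. The Rvb1-tagged rises of COR1, QCR9 and ATP17 no longer passed without replicate 2 of the wild type. That of COX5A was lost under other settings. NDI1 and CYC1 fell in both PIH1 deletions, each tested against its own wild type. Without replicate 2 of the Rvb1-tagged wild type the effect was again lower in 38, and the share of all tested genes is not given for that setting.

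For TAH1 the effect was lower with tagged Rvb2 in 20 of the 40 genes and higher in 5, where 24.5% of all tested genes differed, 11.5% lower and 13% higher, with a median of −0.38. Without replicate 2 of the Rvb1-tagged wild type it was again lower in 20 and higher in 5, with a median of −0.25. The share of all tested genes is not given for that setting. CYC1 differed by −1.34 ± 0.16, adjusted p = 5.39e-06 and COX4 by −0.97 ± 0.13, adjusted p = 1.14e-05, and both were higher than wild type with tagged Rvb1 and lower with tagged Rvb2. The 5 whose effect was higher with tagged Rvb2 were NDE1 (0.47 ± 0.07, adjusted p = 3.35e-05) and the 4 genes of chromosome XVI, QCR2, ATP4, ATP15 and ATP20. Between the wild types few differences passed the test: of the 40 genes 1 was lower with tagged Rvb2 and 0 higher. Of all tested genes 0.206% differed, 0.12% lower and 0.0858% higher. That gene was NDE1, with 1701, 1695 and 1675 in the Rvb2-tagged wild type, against 2098, 2094 and 1952 in the Rvb1-tagged one (−0.28 ± 0.05, adjusted p = 0.0273). At an unadjusted p below 0.05, 14 were higher and 1 lower with tagged Rvb2. The median difference was 0.17, and 0.03 without replicate 2 of the Rvb1-tagged wild type, where again 1 of the 40 passed the test. Leaving out 1 library at a time gave 0 to 7 called genes.

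The deletions were also compared directly. With tagged Rvb2, 32 of the 40 genes were lower in the PIH1 deletion than in the TAH1 deletion and 0 were higher, also at an unadjusted p below 0.05, where 33.6% of all tested genes were lower and 28.7% higher, and the median was −0.42. ATP4 (−1.39 ± 0.07, adjusted p = 5.03e-11) and ATP15 (−1.56 ± 0.09, adjusted p = 2.19e-10), both on chromosome XVI, had the smallest adjusted p-values. With tagged Rvb1, 4 were higher and 4 lower in the PIH1 deletion, where 12% of all tested genes were higher and 14.5% lower. CYC1 was lower by 1.05 ± 0.11 (adjusted p = 3.47e-06) and COX4 by 0.55 ± 0.09 (adjusted p = 0.000208), and NDI1 was among the lower genes, while CYC7, NDE1 and COX7 were among the higher.

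The helper genes of the same complexes did not always move with the subunits. Lists of assembly factors, chosen with earlier results of these data known, were counted in the same fit. The list for complexes II and III also holds CYC3, the heme lyase of cytochrome c, which is counted with them below. In the Rvb1-tagged PIH1 deletion, where 14 subunit genes rose and 2 fell, 1 of 33 assembly factors of complexes II, III and IV rose and 23 fell, with a median of −0.53. In the Rvb1-tagged TAH1 deletion 1 rose and 8 fell, with a median of −0.20. In the Rvb2-tagged PIH1 deletion 1 rose and 29 fell, with a median of −1.10, and in the Rvb2-tagged TAH1 deletion 6 rose and 20 fell, with a median of −0.41. Of the 6 that rose there, CBP3, COX10, COX11 and COA2 lie on chromosome XVI, most of whose genes rose in that deletion. The others were CYC3 and COX19. The shares of all tested genes that rose and fell, given above for each deletion, were 35.2% and 34.4% with PIH1 deleted and Rvb2 tagged and 23.8% and 20.6% with TAH1 deleted and Rvb2 tagged. With Rvb1 tagged they were 19.2% and 18.7% with PIH1 deleted and 6.28% and 4.48% with TAH1 deleted. Both deletions of a tag share their wild type libraries. Without replicate 2 of the Rvb1-tagged wild type, 15 of the 21 complex IV factors and 11 of the 12 complex II and III factors fell in the PIH1 deletion, and 12 and 7 fell in the TAH1 deletion. In that setting 22.9% of all tested genes fell with PIH1 deleted and 13.9% with TAH1 deleted.

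**Figure D5:**
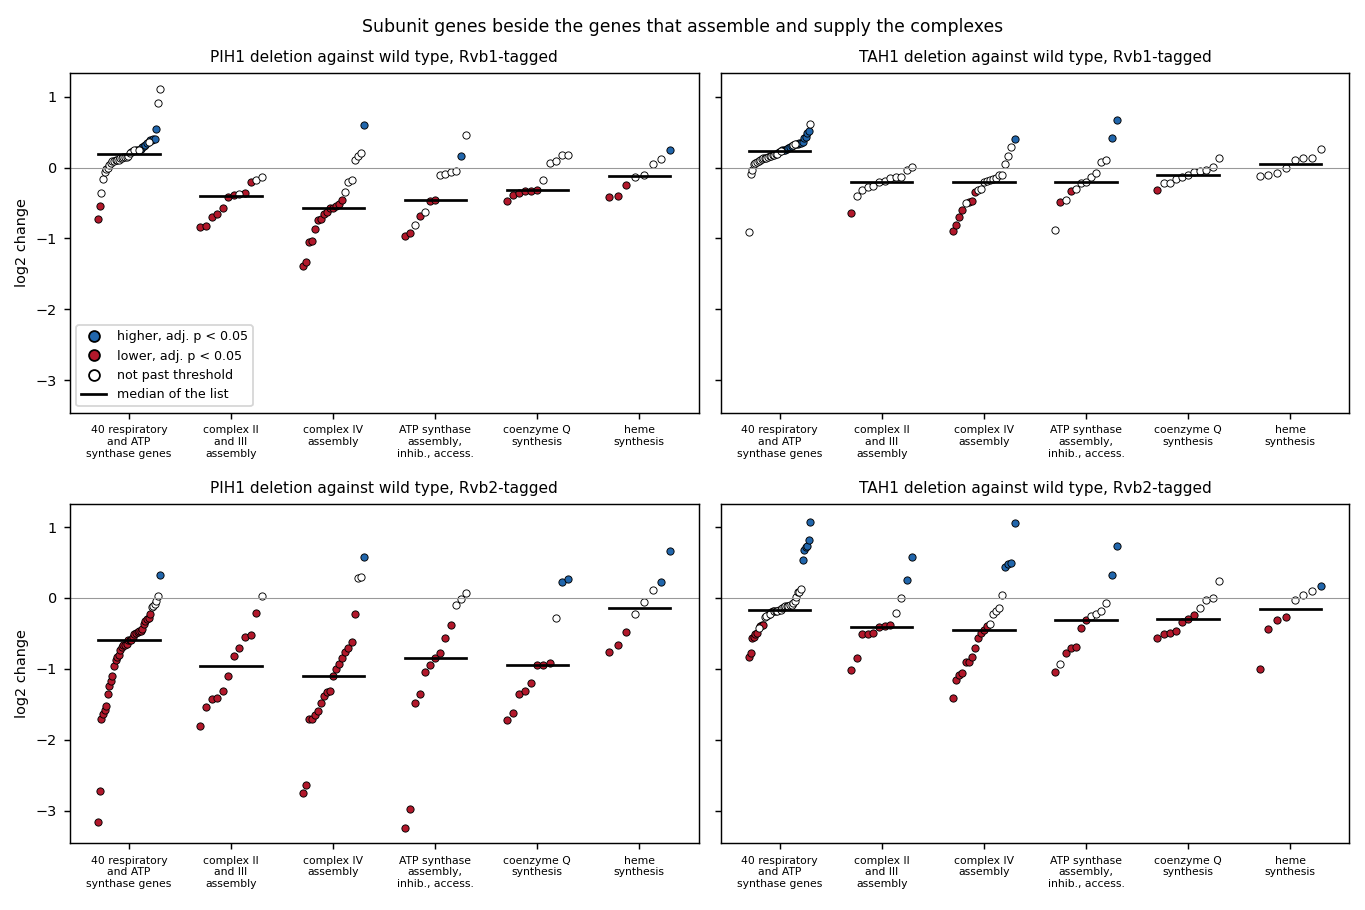
Change on the log2 scale of the 40 respiratory genes and of the lists of assembly factors, coenzyme Q synthesis and heme synthesis genes (1 point per gene, bar at the median) in the 4 deletions. In the Rvb1-tagged PIH1 deletion the median of the respiratory genes is 0.19 and those of the assembly lists lie between −0.57 and −0.40.

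COX17, the copper chaperone that supplies complex IV, had 134, 158 and 134 normalized counts in the Rvb1-tagged PIH1 deletion and 216, 208 and 212 in the TAH1 deletion, against 311, 264 and 311 in the wild type (−1.05 ± 0.09, adjusted p = 1.78e-07 and −0.47 ± 0.09, adjusted p = 0.0024). The TAH1 call was lost with only the 6 libraries compared (adjusted p = 0.0598). Under the Rvb2 tag it had 110, 121 and 114 in the PIH1 deletion and 166, 155 and 168 in the TAH1 deletion, against 372, 359 and 317 (−1.59 ± 0.09, adjusted p = 2.88e-10 and −1.09 ± 0.09, adjusted p = 1.89e-08). Every deletion library lay below its wild type libraries. COA3, a factor that works with the translation of the mitochondrial Cox1 subunit, fell by 0.66 and 0.49 with PIH1 and TAH1 deleted and Rvb1 tagged, and by 1.71 and 1.05 with Rvb2 tagged. SDH5, needed to attach the flavin to Sdh1, had 61, 72 and 68 in the Rvb2-tagged PIH1 deletion, against 236, 248 and 224 in the wild type (−1.80 ± 0.15, adjusted p = 2.42e-08). CBP3, which acts in cytochrome b synthesis and lies on chromosome XVI, changed by −0.82 in that deletion and by 0.57 with TAH1 deleted.

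Of 13 genes for ATP synthase assembly, inhibitors and accessory subunits, 1 rose and 5 fell in the Rvb1-tagged PIH1 deletion, 2 rose and 2 fell in the Rvb1-tagged TAH1 deletion, 0 rose and 10 fell in the Rvb2-tagged PIH1 deletion, and 2 rose and 6 fell in the Rvb2-tagged TAH1 deletion. Of all tested genes 19.2% rose and 18.7% fell in the Rvb1-tagged PIH1 deletion and 6.28% and 4.48% in the Rvb1-tagged TAH1 deletion. With tagged Rvb2 the shares were 35.2% and 34.4% with PIH1 deleted and 23.8% and 20.6% with TAH1 deleted. With replicate 2 of the Rvb1-tagged wild type left out, 0 rose and 7 fell in the Rvb1-tagged PIH1 deletion, where 23.6% and 22.9% of all tested genes did. In the Rvb1-tagged TAH1 deletion 2 rose and 5 fell, where 17.5% and 13.9% did. ATP11, a chaperone of the F1 beta subunit, had 258, 302 and 318 normalized counts in the Rvb1-tagged PIH1 deletion, against 543, 544 and 631 in the wild type (−0.97 ± 0.08, adjusted p = 2.14e-07). Under the Rvb2 tag it had 315, 280 and 308 in the PIH1 deletion, against 651, 626 and 590 (−1.05 ± 0.08, adjusted p = 1.23e-08). The groups did not overlap under either tag. ATP12, the chaperone of the alpha subunit, changed by −0.69 and −1.35 in the same deletions. ATP1 and ATP2, which encode those F1 subunits, gave 0.10 and 0.04 in the Rvb1-tagged PIH1 deletion and did not pass the test there.

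Coenzyme Q carries electrons into complex III. Of 11 tested genes for its synthesis, 0 rose and 6 fell in the Rvb1-tagged PIH1 deletion, 0 rose and 1 fell in the Rvb1-tagged TAH1 deletion, 2 rose and 8 fell in the Rvb2-tagged PIH1 deletion, and 0 rose and 7 fell in the Rvb2-tagged TAH1 deletion. The Rvb1-tagged counts without replicate 2 of the wild type were 1 and 6 in the PIH1 deletion and 0 and 4 in the TAH1 deletion. Of all tested genes 19.2% rose and 18.7% fell in the Rvb1-tagged PIH1 deletion and 6.28% and 4.48% in the Rvb1-tagged TAH1 deletion. Without replicate 2 of the wild type these shares were 23.6% and 22.9%, and 17.5% and 13.9%. COQ5, a methyltransferase of the pathway, had 633, 659 and 655 in the Rvb2-tagged PIH1 deletion, against 1531, 1789 and 1676 in the wild type (−1.36 ± 0.08, adjusted p = 6.2e-10), and COQ11 had 65, 73 and 74, against 229, 223 and 206 (−1.62 ± 0.11, adjusted p = 1.6e-09). Heme is a cofactor of complexes III and IV and of cytochrome c. Of its 8 synthesis genes, 1 rose and 3 fell in the Rvb1-tagged PIH1 deletion, 0 changed in the Rvb1-tagged TAH1 deletion, 2 rose and 3 fell in the Rvb2-tagged PIH1 deletion, and 1 rose and 4 fell in the Rvb2-tagged TAH1 deletion. At an unadjusted p below 0.05, 2 were higher and 0 lower in the Rvb1-tagged TAH1 deletion. There, 1 rose and 0 fell without replicate 2 of the wild type, and the PIH1 deletion again gave 1 and 3. Of all tested genes 35.2% rose and 34.4% fell in the Rvb2-tagged PIH1 deletion, and 23.8% rose and 20.6% fell in the Rvb2-tagged TAH1 deletion. HEM15, ferrochelatase, changed by −0.76 in the Rvb2-tagged PIH1 deletion. HEM13, an oxygen-dependent enzyme of the pathway, had 327, 367 and 366 in the Rvb2-tagged TAH1 deletion, against 729, 674 and 726 (−1.01 ± 0.11, adjusted p = 6.04e-07), with no overlap.

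Among other proteins around the chain, POR1, the outer membrane porin, had 2569, 2696 and 2616 normalized counts in the Rvb2-tagged PIH1 deletion and 3305, 3328 and 3498 in the TAH1 deletion, against 6837, 6013 and 5761 in the wild type (−1.24 ± 0.10, adjusted p = 1.78e-08 and −0.87 ± 0.10, adjusted p = 1.73e-06). All 6 deletion libraries lay below the wild type. PET9, the main ADP/ATP carrier, changed by −0.48 and −0.44 and passed the test in both. Of the other electron donors, GUT2, glycerol-3-phosphate dehydrogenase, fell in the Rvb2-tagged PIH1 deletion (−0.68 ± 0.17, adjusted p = 0.00149). CYB2, which oxidizes lactate and reduces cytochrome c, rose in the Rvb2-tagged TAH1 deletion (0.53 ± 0.13, adjusted p = 0.00383). Of the 4 carrier genes, which with PET9 and POR1 include MIR1 and AAC1, 2 rose and 1 fell in the Rvb1-tagged PIH1 deletion and 1 rose in the Rvb1-tagged TAH1 deletion. In each Rvb2-tagged deletion 1 rose, AAC1, and 2 fell. Of all tested genes 19.2% rose and 18.7% fell in the Rvb1-tagged PIH1 deletion and 6.28% and 4.48% in the Rvb1-tagged TAH1 deletion. With tagged Rvb2, 35.2% rose and 34.4% fell with PIH1 deleted and 23.8% and 20.6% with TAH1 deleted.

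Of the transcription factors, HAP4, the regulated subunit of the CCAAT-binding activator, had 336, 356 and 343 normalized counts in the Rvb2-tagged PIH1 deletion and 379, 513 and 516 in the TAH1 deletion, against 481, 555 and 571 in the wild type. It fell with PIH1 deleted (−0.63 ± 0.12, adjusted p = 0.000193), and with TAH1 deleted the groups overlapped (−0.20 ± 0.12, adjusted p = 0.193). With tagged Rvb1 it had 474, 454 and 516 in the PIH1 deletion and 524, 566 and 494 in the TAH1 deletion, against 531, 387 and 515 in the wild type, with changes of 0.02 ± 0.12 and 0.16 ± 0.12 that did not pass. ROX1, the repressor of hypoxic genes, had 1224, 1247 and 1153 in the Rvb1-tagged PIH1 deletion, against 707, 625 and 781 (0.78 ± 0.11, adjusted p = 5.08e-05), and 1237, 1286 and 1213 in the Rvb2-tagged one, against 580, 692 and 762 (0.88 ± 0.11, adjusted p = 1.9e-06). It was highest in the Rvb2-tagged TAH1 deletion, with 1907, 1816 and 1833 (1.46 ± 0.11, adjusted p = 8.56e-09), and it lies on chromosome XVI. HAP1 encodes a heme-responsive activator, whose activity in this strain was not measured. It rose in the Rvb2-tagged PIH1 deletion (0.49 ± 0.07, adjusted p = 1.52e-05). Its rise in the Rvb1-tagged PIH1 deletion was lost under quantile normalization and without some single libraries. Of the 7 factors listed, 2 rose and 3 fell in the Rvb2-tagged PIH1 deletion, where 35.2% of all tested genes rose and 34.4% fell.

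Of 5 tested hypoxia genes outside the set, 0 rose and 3 fell in the Rvb1-tagged PIH1 deletion, 0 rose and 0 fell in the Rvb1-tagged TAH1 deletion, 0 rose and 2 fell in the Rvb2-tagged PIH1 deletion, and 0 rose and 4 fell in the Rvb2-tagged TAH1 deletion. In the Rvb1-tagged TAH1 deletion none of them had an unadjusted p below 0.05 either. The Rvb1-tagged PIH1 and TAH1 deletions again gave 3 and 0 falls and no rise without replicate 2 of their wild type. Of all tested genes 18.7% fell in the Rvb1-tagged PIH1 deletion, 34.4% in the Rvb2-tagged PIH1 deletion and 20.6% in the Rvb2-tagged TAH1 deletion. In the Rvb1-tagged TAH1 deletion 4.48% fell. Without replicate 2 of the Rvb1-tagged wild type the Rvb1-tagged shares were 22.9% with PIH1 deleted and 13.9% with TAH1 deleted. TIR1, a cell wall mannoprotein gene of low oxygen, had 60, 51 and 56 normalized counts in the Rvb1-tagged PIH1 deletion, against 332, 378 and 349 in the wild type (−2.64 ± 0.14, adjusted p = 4.08e-10). Under the Rvb2 tag it had 46, 44 and 41 in the PIH1 deletion and 62, 83 and 79 in the TAH1 deletion, against 314, 252 and 218 (−2.54 ± 0.14, adjusted p = 2.18e-10 and −1.79 ± 0.14, adjusted p = 9.72e-09). All of these deletion libraries lay below their wild type.

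The 7 mitochondrially encoded subunit genes, COX1, COX2, COX3, COB, ATP6, ATP8 and OLI1, could not be compared. After poly(A) selection their normalized counts summed to 0 to 12 per library, the highest single value was 4, and ATP8 was at 0 in every library.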

How the data were processed

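Poly(A)-selected RNA of 18 libraries (6 groups of 3) was sequenced. The authors deposited normalized read counts per gene (signal, rounded to whole numbers, library factors not given) and FPKM values (score, rounded to whole numbers). The submitters' processing notes name the sacCer3 build, DESeq2 1.6.3 and TopHat2 2.0.3. The sources used here give no annotation, counting tool or strand setting. The tables are proportional gene by gene: the SD over libraries of their log2 ratio had a median of 0.000748 in 608 genes over 200 FPKM. Replicate 1 of the Rvb2-tagged wild type names Rvb1 in its source field; the title was followed.

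Whole reads were not recovered, so no count test was run. One limma model (3.58.1, R 4.3.3) of 6 group means with an intensity trend was fitted to log2(normalized count + 1) of 5825 genes with a mean of at least 10, which understates changes of low genes. The 9 contrasts were tested two-sided, with Benjamini-Hochberg adjustment over all genes and a threshold of 0.05. Errors of log2 changes are standard errors. Labels call the replicates biological without naming cultures, so p-values cover only the variation among these libraries.

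The genes, lists and the rule for named genes were chosen with earlier results of these data known. Values per library were given for up to 4 genes per deletion with the smallest adjusted p and no overlap, the isoform pairs, the largest change per complex, up to 2 genes for the other contrasts, up to 2 per list, HAP4, and the deleted genes; others were described after their values were seen. Identifiers were matched to R64, 6048 by locus tag and 31 by symbol, with 1047 unmatched. Alternatives were another pseudocount, filters, scalings, the FPKM table, only the libraries compared, a replicate block, leaving out each library, and, added after seeing the data, a fit without chromosome XVI genes. The script was tested on simulated data.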

Additional observations from a re-analysis of the deposited data

Results flagged for a closer look

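The effect of a deletion differed between the tagged strains, by the test of the difference itself in limma, in 38 of the 40 genes for PIH1 and in 25 for TAH1. Differences are the log2 change with tagged Rvb2 minus that with tagged Rvb1. For PIH1, among genes described by library, COX26 (−4.07) and CYC7 (−3.84) had the largest differences, and both had low counts and wide spread between replicates. COX5B (−1.88), CYT1 (−1.45), SDH1 (−1.23), SDH4 (−1.23), NDI1 (−0.98), COX4 (−0.90), COX7 (−0.85), COX6 (−0.83), ATP16 (−0.73), COX5A (−0.67), CYC1 (−0.64), ATP5 (−0.45) and COX9 (−0.37) followed. Only genes whose difference passed the test are listed. In all 38 that passed, the PIH1 deletion effect was lower with tagged Rvb2.

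For TAH1 the differences had both signs. The deletion effect was lower with tagged Rvb2 for CYC1 (−1.34), COX4 (−0.97), COX5B (−0.90), COX13 (−0.62), ATP3 (−0.50), COX9 (−0.49) and COX5A (−0.38). It was higher for NDE1 (0.47), QCR2 (0.42), ATP4 (0.57) and ATP20 (0.75), and the last 3 of these lie on chromosome XVI. Tested genes of that chromosome had a median change of 0.97 in the Rvb2-tagged TAH1 deletion. The labels do not tell more than 1 strain apart within a group, so the tag, the deletion and the strain cannot be told apart in these differences. Whether copy number had a part in the chromosome XVI values was not tested.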

How the results depend on the processing

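Counts of called genes kept within 1.5 times in 135 of 147 alternatives. The Rvb1-tagged deletions and the wild types moved most. For the Rvb1-tagged PIH1 deletion the count of 16 became 10 under quantile normalization and 8 with only the libraries compared. For the Rvb1-tagged TAH1 deletion the count of 17 became 9 with each library scaled to the same total, 10 under quantile normalization and 0 with only the libraries compared, where CYC1, COX4, COX5A, COX9, COX13 and ATP3 all lost their calls. The wild types gave 1, and 0 with the replicate block (5 higher and 1 lower at an unadjusted p below 0.05) and 0 with only the libraries compared (4 higher and 1 lower). Leaving out 1 library at a time gave 12 to 20 called genes for the Rvb1-tagged PIH1 deletion, 11 to 16 for the Rvb1-tagged TAH1 deletion, 34 to 35 for the Rvb2-tagged PIH1 deletion, 15 to 19 for the Rvb2-tagged TAH1 deletion and 0 to 7 for the wild types. Without replicate 1 of the Rvb1-tagged wild type the wild types gave 7, where 8.1% of all tested genes were called, and without its replicate 3 they gave 4, where 5.37% were called. The share of all tested genes called is given for only some of these settings. Where it is not given, a change in the members cannot be told from a change over all genes. The causes were not tested.

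The replicate numbers were not taken to pair the samples: of 45 same-numbered pairs from different groups, 8 correlated above 0.1, with a range of −0.38 to 0.41. Only the Rvb1-tagged PIH1 deletion and the Rvb2-tagged TAH1 deletion, which enter no comparison together, had all 3 pairs above 0.1 (0.41, 0.14 and 0.16). With the replicate block the counts were 16 and 13 for the Rvb1-tagged PIH1 and TAH1 deletions and 35 and 17 for the Rvb2-tagged ones. The shares of all tested genes with this block are not given, so the counts have no background beside them.

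For named genes, 1746 of 1836 alternatives kept direction and side of the threshold, 61 lost and 12 gained a call, and 17 changed sign. All 17 belonged to changes that did not pass the test. In the Rvb1-tagged PIH1 deletion, HAP4 was −0.021 under quantile normalization and −0.12 to 0.11 when a library was left out, COX5B −0.080 to 0.42 and GUT2 −0.15 to 0.29. In the Rvb1-tagged TAH1 deletion, NDE1 was −0.0039 under quantile normalization, and leaving out a library gave NDE2 −0.12 to 0.39, COX5B −0.19 to 0.30, HEM13 −0.18 to 0.052, COQ11 −0.11 to 0.038, CYB2 −0.16 to 0.11 and POR1 −0.046 to 0.21. With tagged Rvb2, NDE2 ranged from −0.35 to 0.083 and CYB2 from −0.043 to 0.13 with PIH1 deleted, and CYC7 from −0.39 to 0.034 with TAH1 deleted. CYC7 passed in the Rvb1-tagged PIH1 deletion only without replicate 1 of its wild type. Of the list counts, 547 of 600 kept within 1.5 times.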

Other observations

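The genes INH1, STF1 and STF2 encode the inhibitor of ATP hydrolysis by ATP synthase and related factors, and were described after their values were seen. STF2 had 90, 78 and 94 normalized counts in the Rvb2-tagged PIH1 deletion and 401, 457 and 444 in the TAH1 deletion, against 838, 924 and 743 in the wild type. It fell with PIH1 deleted (−3.24 ± 0.38, adjusted p = 7.95e-07), and all 3 libraries lay far below the wild type. STF1 had 45, 57 and 42 and 160, 190 and 208 in the same deletions, against 393, 410 and 348 (−2.98 ± 0.24, adjusted p = 1.47e-08 and −1.05 ± 0.24, adjusted p = 0.00192). INH1, the main inhibitor, had 111, 98 and 108 in the Rvb2-tagged PIH1 deletion, against 342, 293 and 264 (−1.49 ± 0.18, adjusted p = 1.4e-06). In the Rvb1-tagged TAH1 deletion INH1 went the other way and passed the test as higher, while STF1 and STF2 did not. Values of these genes with tagged Rvb1 are not given here. Subunits of the enzyme changed by −0.83 to −0.04 in the Rvb2-tagged PIH1 deletion.

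Some helper genes moved against their lists. COX19, a protein of complex IV assembly, rose in each deletion, by 0.61 and 0.40 with PIH1 and TAH1 deleted and Rvb1 tagged and by 0.57 and 0.48 with Rvb2 tagged. AAC1, a minor ADP/ATP carrier, rose by 0.89 ± 0.13 in the Rvb2-tagged PIH1 deletion, where PET9, the main one, changed by −0.48 ± 0.06. PET117, another complex IV assembly gene, changed by −2.76 ± 0.21 there, below every subunit of complex IV except COX26.

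CYC7 and COX26, the genes with the widest spread between replicates, were lowest in the same library in 3 of the 6 groups: replicate 1 of the Rvb1-tagged PIH1 deletion, replicate 2 of the Rvb1-tagged wild type and replicate 1 of the Rvb2-tagged TAH1 deletion. In those libraries CYC7 had 54, 14 and 60 normalized counts and COX26 had 15, 5 and 18. Most respiratory genes were low there too, with 33, 38 and 31 of them below both other replicates of the group. The low values were thus not particular to CYC7 and COX26. Whether these genes share their lowest library more often than by chance was not tested.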
